A study of Homo sapiens with 6 samples.

Results

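The genes described here are 10 interferon-inducible effector genes of the human genome: IFIT1, IFIT2, IFIT3, IFIT5, IFI44, IFI44L, IFI6, IFI27, IFI35 and IFI16. They were taken by gene symbol from the 19937 genes of the count table. All 10 were found there. The genes were chosen by name with earlier results of the same contrast known, so their direction in that contrast is given as a description and supports nothing by itself. The samples were U2OS cells, an established human osteosarcoma line, transduced with lentivirus made from the pGIPZ plasmid and selected with puromycin. The 3 shSQLE libraries came from cells carrying a short hairpin RNA against SQLE, which encodes squalene epoxidase, an enzyme of cholesterol synthesis. The 3 shControl libraries came from cells carrying a scrambled hairpin. By the paper's methods, the plasmid backbone, lentiviral delivery and puromycin selection were of the same kind in both groups, while viral dose is not stated. The labels name no interferon treatment. They also name no other SQLE hairpin and no rescue. Effects of the sequence of either hairpin, on interferon genes or others, therefore cannot be told apart from loss of SQLE. Each group was 1 selected population of 1 cell line as far as the labels say, and nothing states that the libraries were separate cultures. The p-values therefore measure the spread between these libraries, which may be technical.

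Interferons are secreted proteins that cells release on sensing foreign nucleic acid. They bind surface receptors, and the receptor kinases phosphorylate signal transducers such as STAT2, which joins IRF9 in a complex that binds the interferon-stimulated response element in promoters. The 10 genes are among the targets of this pathway. IFIT proteins bind viral RNA, IFI44 and IFI44L restrict virus growth, IFI6 and IFI27 are small membrane proteins of the endoplasmic reticulum or mitochondria, IFI35 acts together with its partner NMI, and IFI16 is a DNA sensor of the nucleus. Several of these genes also have a basal level in tumour cell lines without added interferon.

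Counts on genes totalled 12212378 to 14393292 per library. Levels are given as normalized counts, the count scaled to the mean effective library size, with libraries always in the order of replicates 1, 2 and 3. SQLE itself was at 1349, 1867 and 1924 in shControl, and at 229, 204 and 219 after knockdown. Library shControl replicate 1 stood apart: its deviations from the shControl mean correlated with the GC content of 12447 genes (Spearman's rho 0.74, across genes, which are not independent replicates), against -0.63 and -0.69 in the other shControl libraries. Since deviations within a group sum to 0, a strong value in one library sets the sign of the others. The shSQLE libraries gave 0.10, 0.48 and -0.47. Differences between pairs of libraries were also taken as a chi-square per degree of freedom on counts. Library shControl replicate 1 was at 53.9 and 63.8 from shControl replicates 2 and 3, which were at 2.83 from each other. From shSQLE replicates 1, 2 and 3 it was at 32.2, 26.6 and 54.3. Of 8 markers of the osteoblast lineage and mesenchyme, SPARC, VIM, RUNX2 and COL1A1 were among the genes tested, and COL1A1 fell in shSQLE (log2 fold change -0.65, adjusted p = 0.0452), whereas ALPL and COL1A2 were at 0 to 6 counts and THY1 was at 0. Of the markers of other cells, PTPRC and CD3E had 0 counts in every library. The 6 leukocyte markers summed to 1.82 to 1.94 CPM, the counts scaled to a common library total, in shControl and 0.229 to 1.16 in shSQLE, and the 3 endothelial markers to 0.942 to 1.16 and 0.152 to 0.512 CPM. The epithelial markers summed to 3.96 to 4.37 CPM in shControl and 4.42 to 5.74 in shSQLE, with EPCAM at a log2 fold change of 0.40 (adjusted p = 0.362). The part of these markers in the results was not tested.

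The 10 genes split by size of difference. IFIT1, IFIT2, IFIT3 and IFI44 fell to between 22.1% and 25.97% of their shControl means in shSQLE. IFIT5, IFI6, IFI35 and IFI16 stood at 70.2% to 89.3%, and IFI44L and IFI27 were too low to be tested. Of the 8 genes that passed the filter on low counts, 4 were lower at an adjusted p under 0.05 (quasi-likelihood test in edgeR, p-values adjusted over all 12450 genes tested), where 2.84% of all genes tested were called lower. None of the 8 was called higher in edgeR, where 0.369% of all genes tested were. DESeq2 called 5 of the 9 members it tested lower and 0 higher. Of all 13824 genes that DESeq2 tested, it called 556 lower and 158 higher. In edgeR, 1 further gene, IFI16, was past an unadjusted p of 0.05, a cut for which no share of all genes tested is given. The groups did not overlap in 5 of the 8 (12.1% of all genes tested were lower without overlap). The median log2 fold change of the 8 was -1.23, against -0.01 for all genes tested. That median falls in the gap between IFI16 (-0.51) and IFIT1 (-1.94), near no member's own value, and with DESeq2, which also tested IFI27, it was -0.50. In bulk RNA, a lower share of cells expressing a gene and less RNA per cell cannot be told apart.

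**Figure D1:**
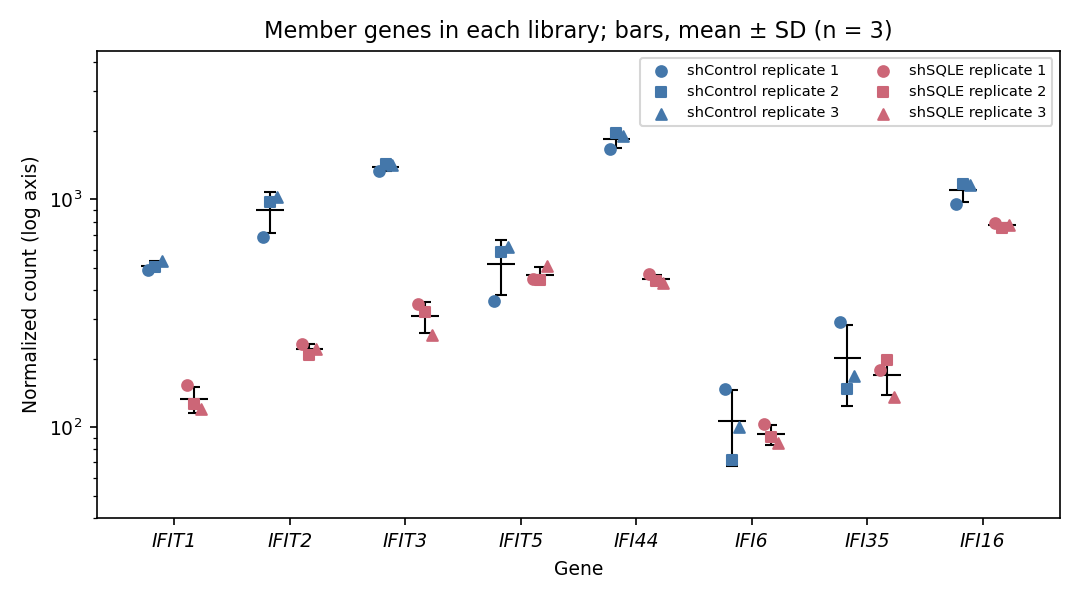
Normalized count (log axis) of the 8 members tested, in each of the 6 libraries; the marker shape gives the replicate number, and black bars give mean ± SD (n = 3). All shSQLE points of IFIT1, IFIT2, IFIT3 and IFI44 lie well below their shControl points, whereas those of IFIT5, IFI6 and IFI35 lie within or across the shControl range.

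IFIT1, IFIT2 and IFIT3 are the RNA-binding members that assemble with one another, IFIT1 recognizing viral RNA by its end and IFIT3 stabilizing it. IFIT1 had 492, 506 and 539 normalized counts in the shControl libraries, against 153, 126 and 120 with SQLE silenced. The lowest shControl library was 339 above the highest shSQLE library, and both groups were tight. IFIT1 fell 3.85-fold (log2 fold change -1.94, standard error 0.14, adjusted p = 0.000696).

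IFIT2, which pairs with IFIT3, had 687, 978 and 1023 normalized counts in shControl and 231, 207 and 221 in shSQLE. Library shControl replicate 1 was the lowest of its group, and it was still 456 above every shSQLE library. IFIT2 fell 4.08-fold (log2 fold change -2.03, standard error 0.18, adjusted p = 0.00139). IFIT3 had 1330, 1434 and 1413 normalized counts in shControl and 349, 321 and 255 in shSQLE. It was the member with the lowest fold change, -2.17 on the log2 scale (standard error 0.14, adjusted p = 0.000548), and stood at rank 69 from the lowest of all 12450 genes tested. IFIT1, IFIT2 and IFI44 stood at ranks 100, 92 and 91.

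The 3 genes kept similar, though not the same, proportions to one another. Per 100 counts of IFIT3, a ratio that needs no library scaling, there were 35.3 to 38.1 counts of IFIT1 in shControl. In shSQLE there were 39.3 to 47.2, without overlap and with a mean 1.18-fold higher. IFIT2 gave 51.6 to 72.4 counts per 100 of IFIT3 in shControl and 64.4 to 86.7 in shSQLE, so that the ranges of this ratio overlapped.

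IFIT5, which binds triphosphate-ended RNA as a single protein, stood apart from them. It had 359, 591 and 616 normalized counts in shControl and 447, 442 and 511 in shSQLE. The shSQLE libraries lay between shControl replicate 1 and the other shControl libraries. The log2 fold change was -0.16 (standard error 0.21, 95% interval -0.64 to 0.31, adjusted p = 0.801), an interval that does not reach the values of IFIT1, IFIT2 and IFIT3. Per 100 counts of IFIT1, IFIT5 gave 73.0, 117 and 114 counts in shControl and 292, 350 and 425 in shSQLE, a mean of 101 ± 24.6 against 356 ± 66.4 (SD, n = 3 each). Every shSQLE library was above every shControl library in this ratio, though an exact permutation test of 3 libraries against 3 cannot go below p = 0.1. Per 100 counts of IFIT3 it gave 27.0 to 43.6 in shControl and 128 to 200.4 in shSQLE, again without overlap. The value of IFIT5 depended on 1 library: without shControl replicate 1 its log2 fold change was -0.37, past the threshold (adjusted p = 0.0136), and without shControl replicate 3 it was -0.02. The fit without shControl replicate 1 called 2300 genes lower and 1964 higher of all 12570 it tested. Over 13 alternative fits the adjusted p of IFIT5 ran from 0.0136 to 0.993.

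The IFIT genes lie side by side on the + strand of chromosome 10 (hg38, GENCODE v44). IFIT2 spans 89283694 to 89309271, IFIT3 89327307 to 89377473, IFIT1 89392546 to 89406487 and IFIT5 89414568 to 89421605, so that the cluster takes up 138 kb and the starts of IFIT1 and IFIT5 are 21.9 kb apart. IFIT1B, a relative between IFIT3 and IFIT1, had at most 2 counts in any library. The lysosomal lipase gene LIPA runs through the cluster on the opposite strand, and some of its annotated exons cover 94 bases of IFIT3 exons and 65 of IFIT2 exons. A long non-coding RNA gene on the same strand, ENSG00000232110, not analysed here, shares 524 exonic bases with IFIT2, 12.1% of them. LIPA had a mean of 844 ± 150 normalized counts in shControl and 739 ± 59.0 in shSQLE (SD, n = 3 each, log2 fold change -0.19, adjusted p = 0.662). Whether the counting used the strand is not given in the sources used here, so reads of those shared bases cannot be assigned to one gene or the other.

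IFI44 and IFI44L are neighbours on chromosome 1 of hg38, at 78649796 to 78664078 and 78619902 to 78646145, both on the + strand and 3.65 kb apart. IFI44 had 1670, 1951 and 1909 normalized counts in shControl and 469, 441 and 429 in shSQLE. The groups were 1201 normalized counts apart at their nearest, the widest gap in counts among the 10 genes, of which IFI44 also had the highest shControl mean. IFI44 fell 4.13-fold (log2 fold change -2.05, standard error 0.12, adjusted p = 0.000299). Per 100 counts of IFIT3 there were 126 to 136 counts of IFI44 in shControl and 135 to 168 in shSQLE, so IFI44 and IFIT3 moved by similar factors.

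IFI44L was not measurable in either group. It had 1, 0 and 1 raw counts in shControl and 0 in every shSQLE library, all at or under the floor of 3 counts, so no fold is given and a difference was not detectable at this depth. In shControl the pair held both the highest and the lowest of the 10 genes. No 50-base stretch of the IFI44L transcript is shared with another annotated gene.

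IFI6 and IFI27 encode small membrane proteins, IFI6 being known to protect cells from death and from flaviviruses. IFI6, on the − strand of chromosome 1 (27666064 to 27672212), had 148, 71.4 and 100.1 normalized counts in shControl and 103, 90.7 and 85.3 in shSQLE. The shSQLE values all lay inside the range set by shControl replicates 1 and 2. The log2 fold change was -0.18 (standard error 0.26, 95% interval -0.79 to 0.43, adjusted p = 0.831), and 0.12 without shControl replicate 1. The LINC02574 transcript shares 21.9% of the 50-base windows of IFI6, so its counts are less certain.

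IFI27, on chromosome 14 (94104836 to 94116695), had 3, 4 and 8 raw counts in shControl and 7, 4 and 2 in shSQLE. These are near the floor, the groups overlapped, and the gene was not tested. Its neighbours and relatives IFI27L1 and IFI27L2 were well expressed, with shControl means of 298 ± 140 and 182 ± 73.0 normalized counts (SD, n = 3), and with log2 fold changes of -0.14 (adjusted p = 0.894) and -0.08 (adjusted p = 0.930).

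IFI35, a leucine zipper protein on chromosome 17 (43006740 to 43014456), had 291, 147 and 168 normalized counts in shControl and 178, 197 and 136 in shSQLE. Library shControl replicate 1 was the highest of all 6 and the other 5 were mixed. The log2 fold change was -0.24 (standard error 0.28, 95% interval -0.88 to 0.40, adjusted p = 0.778), and 0.12 without shControl replicate 1. Its partner NMI had means of 339 ± 51.5 in shControl and 239 ± 5.36 in shSQLE (SD, n = 3 each, log2 fold change -0.51, adjusted p = 0.138).

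IFI16, the DNA sensor, lies on chromosome 1 (158999968 to 159055155). Its normalized counts were 958, 1169 and 1163 in shControl and 787, 751 and 772 in shSQLE. The shSQLE libraries were close together and each lay below every shControl library, by at least 171. The log2 fold change was -0.51 (standard error 0.12, 95% interval -0.79 to -0.23), which was not past the threshold (adjusted p = 0.0701). It was past it with DESeq2 (adjusted p = 0.0105, log2 fold change -0.50) and without shControl replicate 1 (adjusted p = 0.000255, log2 fold change -0.60). Those fits called 556 of 13824 and 2300 of 12570 genes lower. Over 13 alternative fits the adjusted p of IFI16 ran from 0.000255 to 0.332. On the opposite strand the gene PYDC5, not analysed here, shares 425 exonic bases with it. Per 100 counts of IFI44 there were 57.4 to 60.9 counts of IFI16 in shControl and 168 to 180 in shSQLE, so that the difference of IFI16 was much smaller than that of IFI44. Of its relatives in the same family, MNDA and PYHIN1 had 0 counts in all libraries and AIM2 at most 4.

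**Figure D2:**
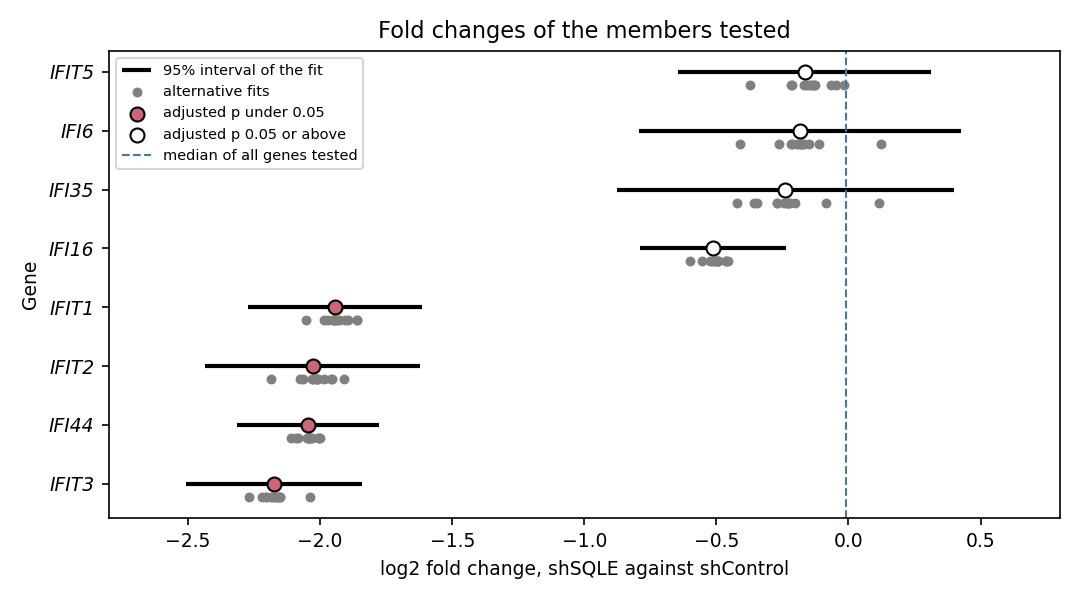
Log2 fold change of shSQLE against shControl for the 8 members tested, with the 95% interval of the fit as a black line and the values under 13 alternative fits as grey points. IFIT3, IFI44, IFIT2 and IFIT1 lie between -2.17 and -1.94 and their intervals end below -1.6, whereas the intervals of IFI35, IFI6 and IFIT5 span 0 and that of IFI16 lies between -0.79 and -0.23.

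The member genes also differed in base composition, which moved with the library that stood apart. The canonical transcripts of IFI6, IFI27 and IFI35 have 56.2%, 58.2% and 58.8% GC and are 812, 725 and 1182 bases long, whereas those of the other 7 genes have 37.6% to 44.4% GC and are 1682 to 5829 bases long. IFI6 and IFI35 were highest in shControl replicate 1 of the 6 libraries, while IFIT1, IFIT2, IFIT3, IFIT5, IFI44 and IFI16 were lowest in it among the shControl libraries. After correction for GC content and transcript length within each library, a fit chosen after seeing the data, IFIT1, IFIT2, IFIT3 and IFI44 had log2 fold changes of -1.86, -1.96, -2.16 and -2.04 and IFIT5, IFI6 and IFI35 of -0.05, -0.19 and -0.22. IFI16 was then past the threshold (-0.46, adjusted p = 0.000843), in a fit that called 1085 of all 12450 genes lower and 1519 higher.

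Levels between genes were compared as normalized counts per kb of the canonical transcript. The order depends on that choice of length, and other lengths were not used. The exons of all transcripts together cover 5294 bases for IFI16, 2038 for IFI44 and 5067 for IFIT3. Their canonical transcripts have 2883, 1682 and 2390. In shControl the order was IFI44 (1096 ± 90.1 per kb, SD, n = 3), IFIT3 (583 ± 23.0), IFI16 (381 ± 41.6), IFIT2 (264 ± 53.7), IFI35 (171 ± 65.7), IFI6 (131 ± 47.5), IFIT5 (129.5 ± 35.1), IFIT1 (119 ± 5.55), IFI27 (6.86 ± 3.43) and IFI44L (0.122 ± 0.107). From IFIT2 down to IFIT1 each neighbour in this order overlapped the next in its range over libraries. In shSQLE the order opened with IFI16 (267 ± 6.31 per kb) and IFI44 (265 ± 12.3), which overlapped. IFI35, IFIT3, IFIT5 and IFI6 followed at 144 ± 26.6, 129 ± 20.2, 116 ± 9.59 and 114 ± 11.0, each overlapping the next, and IFIT2 and IFIT1 came after them at 64.7 ± 3.57 and 30.9 ± 4.02. IFIT3 and IFIT2, which were above IFI35 in the means per kb of shControl, were below it in those of shSQLE.

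In sum over the 10 genes, normalized counts came to 6577 ± 553 in shControl and 2611 ± 100.2 in shSQLE (SD, n = 3 each). IFI44 made up 28.0% of that sum in shControl and 17.1% in shSQLE, and IFIT3 21.2% and 11.8%. The shares of IFI16 were 16.7% in shControl and 29.5% in shSQLE, and those of IFIT5 were 7.85% and 17.9%, although neither had a higher mean count in shSQLE.

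Since IFIT1, IFIT3 and IFI44 moved together and IFIT5 and IFI6 did not move with them, their promoter windows are shown. Each window runs from 250 bases before to 50 bases after the RefSeq start site (GRCh38.p14) and is written on the strand of the gene. Capitals mark matches to the core of the interferon-stimulated response element, which was taken as GAAA, 2 bases of any kind and GAAA, on either strand (read as TTTC, 2 bases and TTTC where it lies on the opposite strand). Where RefSeq gave several windows for a gene, the one nearest the canonical start was taken.
IFIT1, chr10:89392373-89392672, + strand: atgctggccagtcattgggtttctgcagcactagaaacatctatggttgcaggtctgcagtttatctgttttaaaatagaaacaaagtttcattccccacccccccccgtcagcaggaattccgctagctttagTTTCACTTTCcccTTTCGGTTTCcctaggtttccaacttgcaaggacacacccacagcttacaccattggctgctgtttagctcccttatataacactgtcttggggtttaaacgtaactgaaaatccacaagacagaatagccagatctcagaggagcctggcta
IFIT3, chr10:89327747-89328046, + strand: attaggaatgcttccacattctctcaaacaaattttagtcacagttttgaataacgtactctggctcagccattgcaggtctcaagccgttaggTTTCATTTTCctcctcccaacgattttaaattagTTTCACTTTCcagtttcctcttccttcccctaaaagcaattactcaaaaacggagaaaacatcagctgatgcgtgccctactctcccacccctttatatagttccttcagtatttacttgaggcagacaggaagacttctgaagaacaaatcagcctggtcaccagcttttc
IFI44, chr1:78649581-78649880, + strand: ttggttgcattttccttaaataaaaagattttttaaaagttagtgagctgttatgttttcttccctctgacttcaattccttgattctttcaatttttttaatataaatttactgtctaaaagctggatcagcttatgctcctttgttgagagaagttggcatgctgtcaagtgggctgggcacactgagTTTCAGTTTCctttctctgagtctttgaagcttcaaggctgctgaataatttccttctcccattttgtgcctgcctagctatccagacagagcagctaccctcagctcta
IFIT5, chr10:89414318-89414617, + strand: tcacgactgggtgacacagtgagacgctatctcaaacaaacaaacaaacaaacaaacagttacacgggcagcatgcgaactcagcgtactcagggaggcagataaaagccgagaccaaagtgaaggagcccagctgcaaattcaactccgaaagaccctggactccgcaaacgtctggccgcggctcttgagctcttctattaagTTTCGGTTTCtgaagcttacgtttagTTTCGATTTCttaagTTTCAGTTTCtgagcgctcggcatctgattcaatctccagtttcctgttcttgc
IFI6, chr1:27672143-27672442, − strand: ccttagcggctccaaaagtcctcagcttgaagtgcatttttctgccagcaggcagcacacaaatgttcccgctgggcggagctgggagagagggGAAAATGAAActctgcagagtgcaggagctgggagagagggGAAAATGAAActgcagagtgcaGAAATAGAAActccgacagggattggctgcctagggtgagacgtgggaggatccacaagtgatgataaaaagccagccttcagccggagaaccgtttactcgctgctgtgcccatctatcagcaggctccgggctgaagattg
IFI44L, chr1:78620198-78620497, + strand: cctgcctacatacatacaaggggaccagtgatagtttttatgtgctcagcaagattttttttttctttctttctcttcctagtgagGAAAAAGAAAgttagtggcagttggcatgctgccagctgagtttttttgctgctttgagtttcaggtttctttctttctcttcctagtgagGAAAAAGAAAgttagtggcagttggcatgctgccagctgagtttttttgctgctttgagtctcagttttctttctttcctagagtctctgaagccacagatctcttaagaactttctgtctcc

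Of the 10 genes, 9 had an entry among these windows, and IFIT2 had none. The core was matched in 7 of the 9, and in 3.57% of all 35116 windows of the same length. The 7 were IFIT1, IFIT3, IFIT5, IFI44, IFI44L, IFI6 and IFI27, and the windows of IFI35 and IFI16 held no match. Of the 5 tested genes with a match, 3 were called lower (IFIT1, IFIT3 and IFI44) and 2 were not called (IFIT5 and IFI6).

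IFIT1, IFIT3 and IFI44 held 1 or 2 matches, whereas IFIT5 and IFI6 held 3 each, and some letters occurred in both sets. Whether number or letters bear on the fold changes was not tested. IFIT1 and IFIT3 held 2 matches each, of which 1 in each gene has the letters TTTCACTTTC, starting 116 and 122 bases before the start site. The other match of IFIT3 is TTTCATTTTC, which on the opposite strand reads GAAAATGAAA, the letters of 2 of the matches of IFI6 and of 1 of IFI27. IFI44 held 1, TTTCAGTTTC, at 60 bases before it, and IFIT5 held 3, of which the one that spans the start site has those same letters. The other match of IFIT1, TTTCGGTTTC, occurs also in IFIT5, 45 bases before the start, and in IFI27. IFI6 held 3 matches, from 156 to 84 bases before its start.

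IFI44L held 2 matches, GAAAAAGAAA both times, within a run of 85 bases that occurs 2 times in its window. Its longest run in common with the window of IFI44 is agttggcatgctg, 13 bases, which 3 of the 35116 windows contain. That count includes the windows of these genes themselves, of which IFI44 has 2 and IFI44L has 1. The core of the gamma-activated site, TTCNNNGAA, a palindrome, was matched in IFI27, where it overlaps both matches of the response element, and in IFI35, and in 7.66% of all windows. Among the genes tested that had a window, 21 of 395 with a response element match were called lower (5.32%), against 246 of 9727 without one (2.53%). Genes chosen with this contrast known, such as IFIT1, IFIT3 and IFI44, were not taken out of these counts. A match of letters is a description and not evidence of binding.

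**Figure D3:**
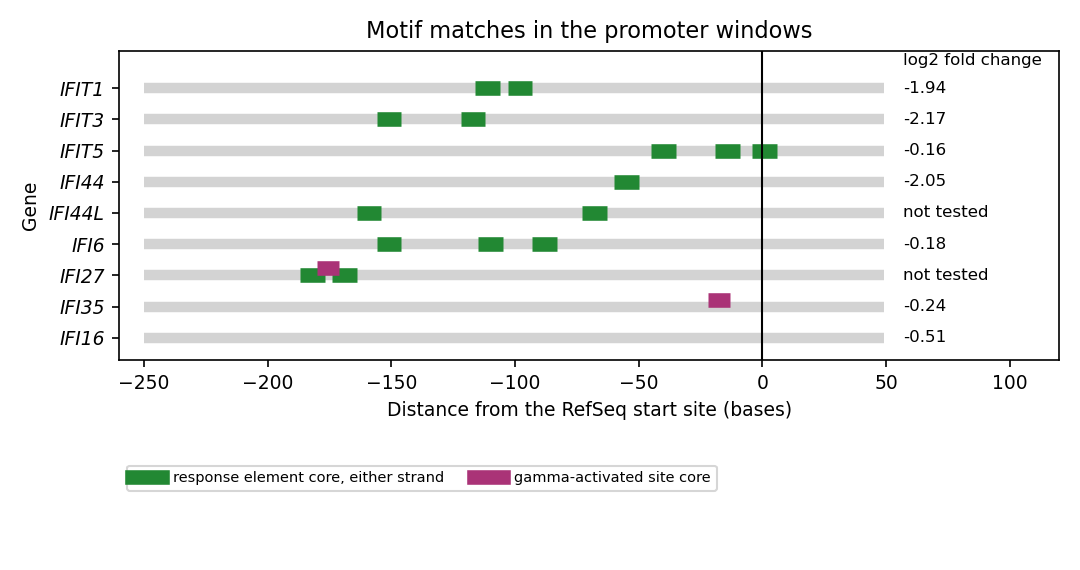
Positions of matches to the response element core (green) and to the gamma-activated site core (purple) in the promoter windows of 9 members, in bases from the RefSeq start site, with the log2 fold change of each gene at the right. IFIT5 (-0.16) and IFI6 (-0.18) each show 3 green matches, and IFI44 (-2.05) shows 1.

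The other genes of the pathway were counted in 6 lists of 91 genes, chosen for their roles. They too were chosen with earlier results of these data known, so their counts of calls are a description. In all, 57 of them were tested, and 15 were called lower (26.3%, beside 2.84% of all genes tested) and 0 higher. The median log2 fold change was -0.50, and 31 had an unadjusted p under 0.05. For that unadjusted cut no share of all genes tested is given, so these counts, here and by list below, have no background beside them. The interferons themselves were at or near 0 counts: 15 of 21 ligand genes were at 0 in every library, and none was tested. Of the 3 that DESeq2 tested, it called 1, IFNL1. IFNL1, a type III interferon, had 13, 10 and 9 raw counts in shControl and 0 in all shSQLE libraries, at least 3.66-fold lower against a floor of 3 counts per library. IFNB1 had 6, 4 and 2 against 0, 0 and 1. Both were singled out after their values were seen, and such counts carry a wide counting error.

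Of 11 tested receptors, kinases and signal transducers, none passed the adjusted p in edgeR's test, 4 had an unadjusted p under 0.05, DESeq2 called 1 (STAT2), and the median log2 fold change was -0.22. STAT2, a subunit of the complex that binds the response element, had means of 372 ± 16.3 in shControl and 246 ± 24.5 in shSQLE (SD, n = 3 each, log2 fold change -0.59, adjusted p = 0.0554). The kinase gene JAK2 was at -0.72 (adjusted p = 0.173). Of 15 tested sensors, adaptors and regulatory factors, 4 fell: the RNA sensors RIGI, IFIH1 and DHX58, with log2 fold changes of -2.13, -1.55 and -3.10 (adjusted p = 0.0335, 0.00900 and 0.0110), and their adaptor MAVS at -0.58 (adjusted p = 0.0240). DESeq2 called 6 of the 15, adding IRF1 and STING1. DHX58 had 1, 2 and 4 raw counts in the shSQLE libraries, which leaves its fold change imprecise.

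None of the 6 inhibitors of the pathway passed the adjusted p in edgeR's test, and DESeq2 also called 0. IRF2, a repressor at response elements, was the 1 inhibitor at an unadjusted p under 0.05 (log2 fold change -0.35, adjusted p = 0.315), and SOCS3, which blocks the receptor kinases, was at -0.21 (adjusted p = 0.583). Of 8 relatives and partners of the members 3 were tested and none was called by edgeR or DESeq2, with 1 at an unadjusted p under 0.05 in edgeR, NMI. Of the 22 tested genes among 28 other interferon-induced effectors, 11 fell and 0 rose in edgeR's test, with a median log2 fold change of -1.19. DESeq2 called 15 of 24 lower and 0 higher, beside 556 lower and 158 higher of all 13824 genes it tested. HERC6 and HERC5, of which HERC5 is the ligase for ISG15, were at -1.99 and -1.41 (adjusted p = 0.000398 and 0.00135). OASL was at -2.60 (adjusted p = 0.00325), and SAMD9 and SAMD9L at -1.58 and -1.71 (adjusted p = 0.0165 and 0.0142). RSAD2, encoding the antiviral enzyme viperin, had 15, 44 and 25 raw counts in shControl and 2, 0 and 0 in shSQLE (adjusted p = 0.0124). The number of calls among pathway genes, 15, moved with the libraries included: there were 32, 8 and 10 without shControl replicates 1, 2 and 3, and 3, 3 and 4 without shSQLE replicates 1, 2 and 3. Calls lower over all genes moved too, from 354 in the main fit. They were 2300, 154 and 198 in the former fits and 105, 104 and 101 in the latter, of 12539 to 12610 genes tested.

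**Figure D4:**
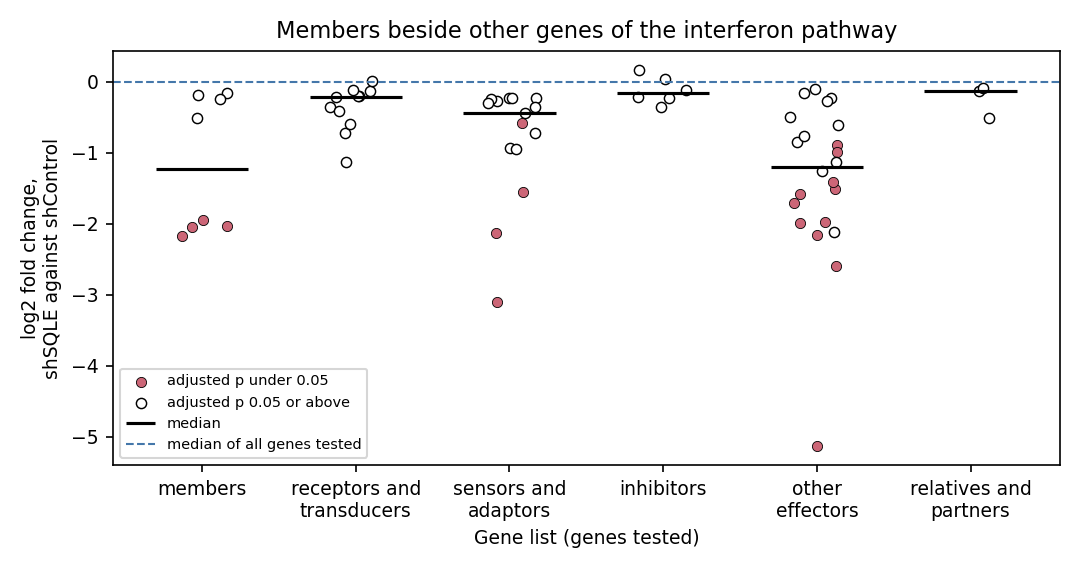
Log2 fold change of every gene tested among the members and in 5 lists of other interferon pathway genes; filled points passed an adjusted p of 0.05, black bars are medians and the dashed line is the median of all genes tested. Members and other effectors have medians of -1.23 (in a gap between -0.51 and -1.94) and -1.19, with 4 of 8 and 11 of 22 genes called lower.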

How the data were processed

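Poly(A) RNA of 6 U2OS libraries, 3 shSQLE and 3 shControl, was sequenced by the authors as read pairs. Per the submitters' processing notes, trimming was by fastp 0.20.0, alignment by STAR 2.7.9a against hg38 and counting by featureCounts 2.0. The authors deposited unnormalized counts for each gene. The sources used here do not give the annotation release, the strand setting or how multi-mapping reads were counted, and ambiguous assignment could change the counts of IFI6, IFIT2 and IFIT3. Libraries were assigned to groups from their genotype labels.

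Of the 19937 genes, 12450 passed filterByExpr and were tested with edgeR 4.0.16 in R 4.3.3 (TMM normalization, quasi-likelihood test, condition as the only term, Benjamini-Hochberg adjustment, threshold 0.05). The standard error is the absolute log2 fold change divided by the square root of F. DESeq2 1.42.0, other scalings and filters, a replicate block, the omission of each library and a GC and length correction (splines within each library) were alternatives. Gene positions, transcript lengths and GC came from GENCODE v44, symbols from its identifiers (32 without a symbol), and promoter windows from RefSeq.

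The members and lists were chosen with earlier results of these data known. Named genes were the members, SQLE, up to 6 called genes per list with the smallest p (else 2), the 5 genes most like the members in profile, and the nearest tested genes of each locus. Counts of 3 or fewer were taken as at the floor, which covers counting error only. Some genes of these lists are not reported here by name.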

Additional observations from a re-analysis of the deposited data

How the results depend on the processing

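IFIT1, IFIT2, IFIT3 and IFI44 were called lower in all 13 alternatives, with a highest adjusted p of 0.0227 (IFIT2, without shSQLE replicate 3). Of 104 member values under alternatives, 98 kept their direction and side of the threshold. Over the fits that left out 1 library IFI6 ran from -0.41 to 0.12 and IFI35 from -0.42 to 0.12, with the change of sign without shControl replicate 1, and IFIT5 (-0.37) and IFI16 (-0.60) passed the threshold there, as IFI16 also did with DESeq2 and with GC content and length taken out. Leaving out 1 library gave 4 to 6 members called, a members' median of -1.29 to -1.17, 109 to 4264 genes called among all tested and 3 to 32 among the pathway lists. DESeq2 called 714 of 13824 genes (556 lower and 158 higher) and 23 of 63 in the pathway lists. Its members' median was -0.50 over 9 genes, since it also tested IFI27. The GC and length correction, chosen after seeing the data, called 2604 genes and 29 in the lists, against 400 and 15 as reported, with a median over all genes of 0.06 in place of -0.01. Its calls were 1085 lower and 1519 higher, against 354 and 46. Without shControl replicate 1 they were 2300 and 1964. The cause of these shifts was not tested.

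Deviations of same-numbered libraries from their group means correlated at 0.14, -0.43 and 0.54 over all genes. Since such deviations also followed GC content, these values cannot show whether same-numbered libraries were prepared together. With a replicate block 396 genes were called, 4 of them members, with a members' median of -1.23, and 17 in the lists.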

Other observations

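The 5 genes, other than the members, whose log2 CPM over the 6 libraries correlated most with the mean profile of the 8 members tested were KLF4 (Pearson's r 0.9995), DNAJB11 (0.9985), VEGFC (0.9983), PDIA4 (0.997) and GRB10 (0.9966), among 9872 genes averaging 100 or more normalized counts. These points share libraries and fall into 2 groups, so r mostly gives the difference between groups. KLF4, a transcription factor, had 667, 657 and 714 normalized counts in shControl and 310, 290 and 283 in shSQLE (log2 fold change -1.21, adjusted p = 0.00194). PDIA4 and DNAJB11, a disulfide isomerase and a cochaperone of the endoplasmic reticulum, were at -1.17 (adjusted p = 0.000979) and -0.77 (adjusted p = 0.00564). The lymphatic growth factor gene VEGFC and the receptor adaptor gene GRB10 were at -1.22 (adjusted p = 0.00185) and -0.87 (adjusted p = 0.00368).

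The nearest tested genes on either side of the 6 loci were mostly not called. FAS and PANK1 flank the IFIT cluster at log2 fold changes of -0.51 (adjusted p = 0.149) and -0.31 (adjusted p = 0.569). Of the 2 genes flanking IFI44L and IFI44, PTGFR fell (-2.86, adjusted p = 0.0103) from a shControl mean of 17.5 ± 3.41 to 2.34 ± 0.646 normalized counts (SD, n = 3 each), near the floor, and ADGRL2 was at 0.30 (adjusted p = 0.665). The neighbours of IFI35, RPL27 and VAT1, were at 0.15 and -0.08 (adjusted p = 0.827 and 0.881), those of IFI6, AHDC1 and FAM76A, at 0.20 and 0.05 (adjusted p = 0.656 and 0.929), and those of IFI16, CD1D and CFAP45, at -0.06 and -0.44 (adjusted p = 0.972 and 0.537).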
